A study of Mus musculus with 6 samples.

Results

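ChIRP-seq of *LncRNA-HIT* in the E 11 mouse limb gave 2880 peaks, of which 2856 lie on chromosomes 1 to 19 and X. The peaks described here are those farther than 25 kb from the body of any gene, counting protein-coding genes, noncoding RNA genes and pseudogenes of the GENCODE M1 annotation of mm9, with no limit on the score. This distance rule selected 874 peaks (30.6% of the 2856, 95% Wilson interval 28.9% to 32.3%). They are called far peaks below, and the other peaks on these chromosomes are 1393 genic peaks, which overlap a gene body, and 589 near peaks, which lie outside genes but within 25 kb of a gene. Intervals on shares and medians cover counting error only.

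In ChIRP, biotinylated DNA oligonucleotides complementary to an RNA are used to recover the chromatin that the RNA contacts, which is then sequenced. *LncRNA-HIT* is a long noncoding RNA transcribed between *Hoxa11* and *Hoxa13*, a pair of homeobox genes required for patterning of the forearm and hand. Long stretches of the genome without genes, known as gene deserts, often flank genes that control development, and some hold enhancers that act on a promoter far away.

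Limb chromatin was prepared from the distal limb bud, the autopod region, of Swiss Webster embryos, with many limb buds pooled for each assay. It was hybridized separately with an odd set of 13 and an even set of 12 probes of 20 bases. The control was chromatin of a murine glial cell line, labelled as mouse brain, that, per the study, does not express *LncRNA-HIT*. This line was hybridized with the same probe sets, and its labels give conflicting stages, which were not used. With 1 input library for each tissue, the series holds 6 libraries. The odd and even tracks of a tissue were merged before peaks were called, so that each tissue has 1 peak list, no replicates and an unknown number of reads behind each peak. The odd and even libraries were not analysed here separately, so no test between samples was made, and no p-value was computed over peaks, which are not replicates of a tissue. Peak strength is given as −log10(p), the deposited MACS score divided by 10, and the study threshold is the p-value of 5.9e-57 at which the study limited its own list, a −log10(p) of 56.23.

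Some far peaks held a stretch of bases identical to a probe. The stretches below are shown because they are the longest found in far peaks or lie in far peaks that are among the strongest or beside a limb gene. Each is given in mm9 with 10 bases on either side, read 5′ to 3′ on the strand on which it equals the probe, with the bases identical to the probe in capitals.
Probe 16, between Nxph1 and Ndufa4, chr6:9847562-9847597, plus strand: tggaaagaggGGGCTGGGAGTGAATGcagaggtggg
Probe 4, between Ephb1 and Ky, chr9:102364710-102364744, minus strand: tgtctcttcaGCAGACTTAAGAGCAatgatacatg
Probe 4, between Pgbd5 and Cog2, chr8:126995238-126995270, minus strand: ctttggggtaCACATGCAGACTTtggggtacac
Probe 16, between Gm11077 and Pde3a, chr6:140736924-140736956, plus strand: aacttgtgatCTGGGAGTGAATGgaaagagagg
Probe 5, between Tbx5 and Rbm19, chr5:120463012-120463044, minus strand: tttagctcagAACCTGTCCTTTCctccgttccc
Probe 8, between Tbx3 and Tbx5, chr5:120237021-120237053, minus strand: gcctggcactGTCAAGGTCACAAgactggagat
Probe 4, upstream of Runx1, chr16:93112953-93112984, plus strand: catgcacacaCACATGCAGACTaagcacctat
Probe 18, upstream of Mef2c, chr13:83251346-83251377, minus strand: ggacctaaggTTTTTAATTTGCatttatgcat
The stretch of 16 bases between *Nxph1* and *Ndufa4* was the longest in any far peak, and its peak was weak, with a −log10(p) of 12.7. The stretch of 15 bases between *Ephb1* and *Ky* lies in a peak of 53.2. The stretch of 13 bases between *Pgbd5* and *Cog2* lies in the strongest far peak, with a −log10(p) of 310.

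The central 240 bases of 4 far peaks next to limb or skeletal genes are shown for comparison, on the plus strand of mm9, with each CG dinucleotide in capitals. CG is the site of DNA methylation in mammals and is depleted from most of the genome.
Upstream of Col11a1, chr3:113600917-113601156, plus strand: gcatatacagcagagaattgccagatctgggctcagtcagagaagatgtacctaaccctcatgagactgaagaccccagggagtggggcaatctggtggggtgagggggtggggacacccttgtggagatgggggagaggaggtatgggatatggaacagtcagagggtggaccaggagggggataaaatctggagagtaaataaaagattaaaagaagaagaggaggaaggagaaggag
Upstream of Six2, chr17:86122292-86122531, plus strand: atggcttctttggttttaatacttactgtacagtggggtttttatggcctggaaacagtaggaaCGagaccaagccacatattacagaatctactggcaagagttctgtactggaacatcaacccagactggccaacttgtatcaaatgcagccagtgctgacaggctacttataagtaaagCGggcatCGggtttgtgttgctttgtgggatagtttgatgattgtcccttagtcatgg
Upstream of En1, chr1:122451418-122451657, plus strand: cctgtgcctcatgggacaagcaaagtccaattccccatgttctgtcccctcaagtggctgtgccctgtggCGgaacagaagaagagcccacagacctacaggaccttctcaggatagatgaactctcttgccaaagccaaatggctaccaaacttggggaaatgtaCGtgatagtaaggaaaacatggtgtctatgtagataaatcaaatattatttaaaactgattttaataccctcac
Upstream of Tbx5, chr5:120236955-120237194, plus strand: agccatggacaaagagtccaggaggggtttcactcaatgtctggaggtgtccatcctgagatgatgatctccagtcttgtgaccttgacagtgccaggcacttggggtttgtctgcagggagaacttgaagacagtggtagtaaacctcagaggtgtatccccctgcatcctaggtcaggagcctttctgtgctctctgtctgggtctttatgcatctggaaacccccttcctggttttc
The centres upstream of *Col11a1* and *Tbx5* have a GC content of 51.7% and no CG, whereas those upstream of *Six2* and *En1* have 44.2% and 44.6% GC with 3 and 2 CG. None of the 8 sequence words searched below occurs in these 4 centres.

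The far peaks were less dense than peaks in genes. Sequence more than 25 kb from any gene covers 889.5 Mb, 34.8% of the known bases of these chromosomes, and held 0.983 limb peaks per Mb. Near sequence held 0.959 limb peaks per Mb and gene bodies held 1.32 per Mb. In the glial cell line, 966 of 2881 peaks on these chromosomes were far from any gene (33.5%, 95% Wilson interval 31.8% to 35.3%), with 1.09 glial peaks per Mb of far sequence and 1.25 per Mb of gene bodies. Both lists thus held more peaks per Mb within genes than far from them.

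The median distance of the far peaks from the nearest gene of any type was 84.7 kb (95% interval 76.9 to 91.7 kb). The distance was 45.5 kb at the lower quartile and 179 kb at the upper quartile. When only protein-coding genes were considered, the median distance was 147 kb (134 to 169 kb), and 32 far peaks lay 1 Mb or more from such a gene. The nearest gene was protein-coding for 448 far peaks (51.3%), a snoRNA gene for 98, a pseudogene for 97, an snRNA gene for 79 and a miRNA gene for 45. The remaining far peaks lay nearest to processed transcripts (43), lincRNA genes (26), miscellaneous RNA genes (23) or rRNA genes (15). Relative to the nearest protein-coding gene, 443 far peaks lay upstream (50.7%, 47.4% to 54.0%) and 431 downstream, so that neither side held more peaks than counting error allows.

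Within the far sequence, limb peaks did not thin out steadily with distance. The band from 25 to 50 kb held 269 far peaks at 1.17 per Mb, that from 50 to 100 kb held 223 at 0.925 per Mb, and the band from 100 to 250 kb held 230 far peaks at 0.856 per Mb. Between 250 and 500 kb the density was 1.059 per Mb, with 121 far peaks, and beyond 500 kb it was 0.890 per Mb, with 31 far peaks. Glial peaks showed another order, with 0.992 per Mb in the nearest band, 1.08 from 50 to 100 kb, 1.20 from 100 to 250 kb, 0.946 from 250 to 500 kb and 1.35 per Mb beyond 500 kb.

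**Figure D1:**
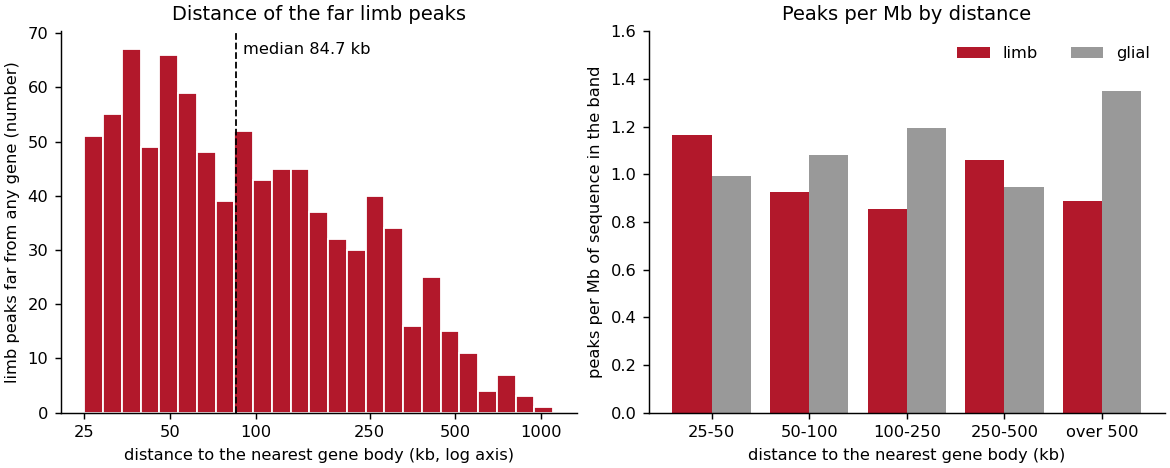
Left, number of far limb peaks by distance to the nearest gene body (log axis, kb), with the median of 84.7 kb as a dashed line. Right, peaks per Mb of sequence in each distance band for limb and glial peaks, in which the limb bars run from 0.856 to 1.17 per Mb and the glial bars from 0.946 to 1.35 per Mb.

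Peaks on either side of the 25 kb limit are given as a description of the limit. The closest far peaks were at chr5:78073296-78073703, 25.05 kb from a *SNORA17* gene (−log10(p) of 62.7), at chr19:58555521-58555928, 25.12 kb from *Gfra1*, a receptor for glial cell-derived neurotrophic factor (60.4), and at chr16:25094279-25094803, 25.14 kb from *A230028O05Rik* (30.9). The near peaks closest to the limit were at chr15:85449124-85449524, 24.99 kb from *AU022754* and 36.9 kb from the signalling gene *Wnt7b* (16.6), at chr17:22618576-22618778, 24.92 kb from *Zfp946* (15.6), and at chr7:6602999-6603403, 24.75 kb from the imprinted gene *Zim1* (40.5).

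Peak strength was compared between far, near and genic peaks. The median −log10(p) was 34.5 for far peaks (95% interval 30.9 to 38.1), 33.1 for near peaks (30.6 to 36.7) and 36.2 for genic peaks (33.6 to 38.4). The medians differed by -1.66 (far minus genic, 95% interval -5.94 to 2.75), and the intervals of all 3 classes overlap. The study threshold was met by 247 far peaks, 28.3% (95% Wilson interval 25.4% to 31.3%), where 26.9% of all limb peaks on these chromosomes met it. A further far peak, at chr14:108191348-108191778 and rank 775 of the limb list, has a −log10(p) that rounds to the same 56.23 but falls just short of this p-value and was not counted. By rank it is the last peak that the study kept. The share was 27.9% of genic peaks (25.6% to 30.3%) and 22.2% of near peaks (19.1% to 25.8%), so that far and genic peaks had overlapping intervals, and the interval of near peaks, which had the lowest share, overlapped both. Among the glial peaks far from genes, 23.8% had such a p-value.

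Among the 100 strongest limb peaks, 28 were far (20.1% to 37.5%), 13 near (7.76% to 21.0%) and 59 genic (49.2% to 68.1%), beside 30.6%, 20.6% and 48.8% of the whole list. The intervals of the far and near peaks include their shares of the list, and that of the genic peaks lies just above theirs. Far peaks made up 32.8% of ranks 101 to 500, 33.2% of ranks 501 to 1000, 27.6% of ranks 1001 to 2000 and 31.9% of the weakest 856. Of these, only the interval of ranks 1001 to 2000, 24.92% to 30.45%, excludes the 30.6% of the whole list. Within the far peaks, those 25 to 50 kb from a gene had a median −log10(p) of 42.2 (32.6 to 49.2), and those 50 to 100 kb away had 29.8 (26.02 to 35.7). The medians of the more distant bands were 37.1, 27.7 and 32.5, and the rank correlation between distance and −log10(p) over the 874 far peaks was -0.07. Wider peaks were the stronger ones (rank correlation of 0.76 over the same peaks), and width and score come from the same signal. The 6 far peaks wider than 1 kb were all within the study threshold.

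**Figure D2:**
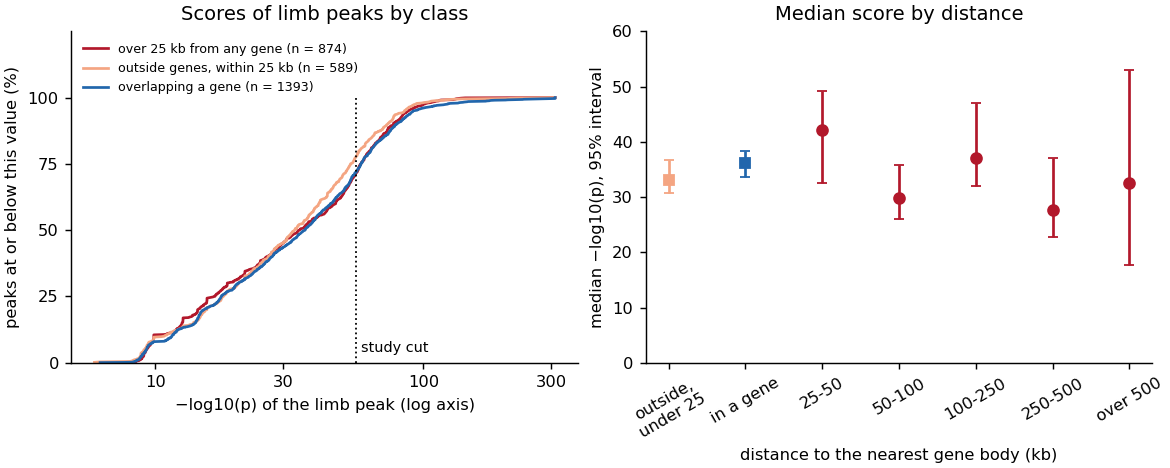
Left, share of limb peaks at or below each −log10(p) (log axis) for far, near and genic peaks, with the study threshold of 56.23 as a dotted line. Right, median −log10(p) with its 95% interval for near peaks, genic peaks and far peaks by distance, in which far peaks 25 to 50 kb from a gene have the highest median, 42.2, and all intervals of the far bands overlap.

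The strongest far peak, at chr8:126994796-126995552, lies between *Pgbd5*, a gene derived from a transposase, and *Cog2*, a subunit of a Golgi tethering complex, and 9 limb peaks share its value of 310, so that this value does not rank them. The next far peak was that of 143 at chr6:140736547-140737028, 32.0 kb from *Gm11077* and 461 kb from *Pde3a*, a cyclic nucleotide phosphodiesterase. A peak of 138 lies 198 kb from *Slc39a10*, a zinc transporter, at chr1:47108596-47109528, and a peak of 135 lies at chr13:101810296-101810953 between *Gm10257* and *Pik3r1*, a regulatory subunit of phosphoinositide 3-kinase. The peak between *Csmd3* and *Trps1*, the latter a zinc finger repressor of growth plate cartilage, had a −log10(p) of 132 and lies 1531 kb from *Trps1* at chr15:48954622-48955202. The peak of 132 at chr12:109101646-109102428 lies 46.2 kb from *Bcl11b*, a zinc finger factor of T cells and neurons.

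*Tbx5*, the T-box gene that starts forelimb outgrowth, lies 127 kb from the seventh in this order, a peak of 130 at chr5:120462274-120463477, with the RNA-binding gene *Rbm19* on its other side at 103 kb. Next came a peak of 129.5 at chr2:108825471-108826628, 106 kb from *Mettl15* and 1687 kb from the potassium channel gene *Kcna4*. The peak of 116 at chr3:113600297-113601776 lies 132 kb upstream of *Col11a1*, a fibrillar collagen of cartilage, with the splicing gene *Rnpc3* on the other side, and is 1480 bp wide. The last of the 10 strongest, with 115, lies at chr5:112294671-112295128, between *C130026L21Rik* and the lens crystallin gene *Cryba4*. None of these 10 far peaks overlapped a glial peak, where such an overlap was found for 1.72% of all far peaks and 3.12% of all limb peaks, so that none among 10 does not set them apart. The share of their 24-base words that occur elsewhere in the genome was 17.03% at *Pgbd5*, 21.0% at *Csmd3* and *Trps1*, 30.5% at *Col11a1* and below 10% in the other 7.

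The 5 far peaks most distant from any gene had −log10(p) values from 12.2 to 67.7, on both sides of the median of all far peaks. The most distant lies 1029 kb from any gene at chr10:15733453-15733750, between *Nmbr*, a neuromedin B receptor, and *Cited2*, a transcriptional coregulator that binds CBP and p300, and had a −log10(p) of 12.2. A pair of peaks between *Khdrbs3* and *Fam135b* at chr15:70392621-70393028 and chr15:70469100-70469800, 876 and 806 kb from any gene, had 42.8 and 21.2. The peak at chr14:81246221-81246628, 824 kb from *Olfm4* with the protocadherin gene *Pcdh17* on the far side, had 32.5. The peak at chr6:109700696-109701478 between *Edem1*, which acts in protein quality control, and *Grm7*, a glutamate receptor, lies 868 kb from any gene and had 67.7, the only value of the 5 within the study threshold.

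Chromosome X held the fewest far peaks for its far sequence, 22 peaks or 0.414 per Mb, and its glial density was also the lowest at 0.376 per Mb. Over the 20 chromosomes the median was 0.984 far peaks per Mb. Chromosome 11 had 1.36 per Mb from 32 far peaks, chromosome 10 had 1.28 per Mb from 63 and chromosome 2 had 1.22 per Mb from 49. On chromosome 10 the glial list was denser still, with 1.89 per Mb, whereas on chromosome 2 it held 0.850 per Mb. On chromosome 18 the limb had 0.881 far peaks per Mb and the glial line 1.47.

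**Figure D3:**
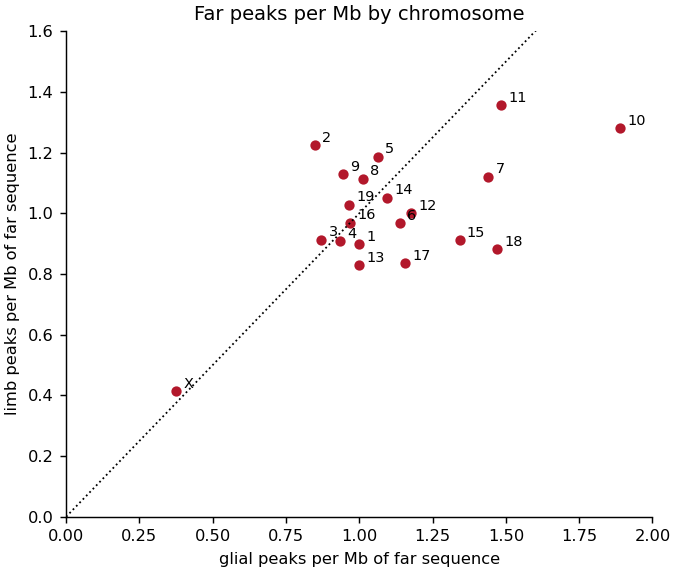
Limb peaks against glial peaks per Mb of sequence more than 25 kb from any gene, 1 point for each of 20 chromosomes, with equal densities on the dotted line. X lies at the lower left, with 0.376 glial and 0.414 limb peaks per Mb, and chromosome 10 lies farthest to the right, at 1.89 and 1.28.

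Far peaks were spread over many gaps. There are 27966 gaps between genes of any type on these chromosomes, and 660 held a far peak. A gene desert was taken as a gap of at least 500 kb, and the 457 such deserts, with 375 Mb of known sequence, held 321 far peaks (36.7%), or 0.857 per Mb. Of the deserts, 244 held no far peak, 139 held 1, 48 held 2 and 26 held 3 or more. These 26 lie on 14 chromosomes, are 0.542 to 2.13 Mb long and hold 86 far peaks. In the glial list 43 deserts held 3 or more such peaks, and 2 deserts held 3 or more in both lists. Far peaks in deserts had a median −log10(p) of 30.1 (25.7 to 36.4), and the 552 in shorter gaps had 36.8 (33.4 to 43.1).

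The deserts on both sides of *Lrig3*, which encodes a transmembrane protein with leucine-rich repeats, held the most far peaks, 5 each. Between *Slc16a7*, a monocarboxylate transporter, and *Lrig3* (chr10:124766020-125403274), the 5 far peaks had −log10(p) values of 86.9, 23.3, 55.9, 83.6 and 8.47 in genome order, and all fell within 76.7 kb of the 637 kb gap. This desert held no glial peak far from genes. The desert on the *Xrcc6bp1* side of *Lrig3* is bounded by the miRNA genes *AC153489.1* and *AC122210.1* (chr10:125473956-126147379). Its far peaks had 28.9, 47.7, 17.4, 29.8 and 14.7 and were spread over 422 kb, with 1 such glial peak in the same desert. The first of these peaks lies 60.2 kb from *Lrig3*. Of the 10 far peaks flanked by *Lrig3*, 2 met the study threshold, which 28.3% of all far peaks met, and both lie on the *Slc16a7* side.

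In 4 deserts there were 4 far peaks each. The desert between a *SNORA79* gene and *Fam135b* (chr15:69516137-71276107) is 1.76 Mb long. The nearest coding gene on its *SNORA79* side is *Khdrbs3*, an RNA-binding protein gene. Its far peaks had 42.8, 21.2, 24.6 and 52.9, the middle pair lying next to each other. The desert between *Tmem182* and *Gm9915* (chr1:40912113-42286570) held far peaks of 23.9, 51.4, 12.7 and 9.86. The desert between *Gm8730* and *Cdh5*, the cadherin of endothelial junctions (chr8:105389778-106625524), held far peaks of 38.3, 24.9, 67.1 and 43.8, which form a pair 276 kb from *Gm8730* and another pair 708 and 713 kb from it. The desert on chr5:79209020-80067839, between a *SNORA17* gene and a *7SK* gene, held far peaks of 66.0, 30.8, 37.2 and 50.5 that spanned 799 of its 859 kb. The nearest coding genes outside it are *Igfbp7*, which encodes a secreted binding protein, and *Lphn3*, an adhesion G protein-coupled receptor. *Lphn3* itself lies 1412 kb beyond the last of these peaks. Among the far peaks of these 4 deserts, only those of 67.1 and 66.0 met the study threshold, which 28.3% of all far peaks met. The first lies 527 kb from *Cdh5*, and the second lies 1401 kb from *Igfbp7* and 29.4 kb from a *SNORA17* gene. No glial peak overlapped any far peak of these 4 deserts, beside the 1.72% of all far peaks with such an overlap.

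The longest desert with 3 or more far peaks lies between a *SNORA17* gene and a *U6* gene (chr10:14704606-16836609, 2.13 Mb). The nearest coding genes outside it are *Nmbr* and *Cited2*. Its 3 far peaks had 17.2, 12.2 and 17.8, each below the study threshold, and the first overlapped a glial peak. This desert held 6 glial peaks far from genes. The desert between a *SNORA17* gene and the miRNA gene *AC114406.1* (chr14:107165374-108778780, 1.61 Mb) held far peaks of 8.46, 56.2 and 21.5 and no such glial peak. The nearest coding genes outside it are *Gm4666* and *Rpl27a-ps2*.

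**Figure D4:**
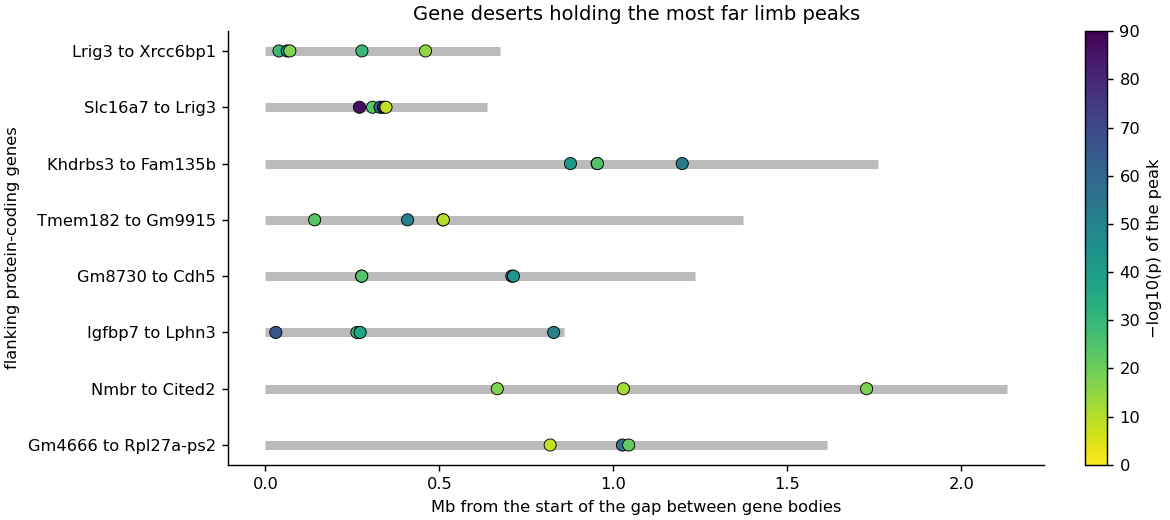
Position of each far limb peak (circles) in the 8 gene deserts with the most far peaks (grey bars), in Mb from the start of the gap, with the −log10(p) of the peak as the colour. The deserts with 3 far peaks are tied with others that are not shown. The 5 far peaks between *Slc16a7* and *Lrig3* sit together within 76.7 kb, whereas the 4 in the desert with *Igfbp7* and *Lphn3* as its nearest coding genes span 799 kb.

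Close groups of far peaks were also found in gaps shorter than a desert, and the genes of these gaps were named after their values were seen. The gap of 332 kb between the processed transcripts *Gm12506* and *Gm12519* (chr4:55649774-55981894) held 6 far peaks, the most of any gap. Their −log10(p) values ran from 11.7 to 65.8. The nearest coding genes lie outside this gap and are *Klf4*, a zinc finger factor of epithelial and stem cells, and *Actl7b*. The peaks lie 149 to 347 kb from *Klf4*. In the 126 kb gap beside *Bcl11b* there were 5, with 83.2, 132, 9.59, 60.1 and 49.0 in genome order (chr12:109022252-109148612). Between a *U6* snRNA gene and *4933436C20Rik*, a 286 kb gap held 4 far peaks with 52.9, 36.2, 83.9 and 91.4 (chr8:94563920-94849936). These peaks lie 138 to 243 kb from *4933436C20Rik*. They lie 281 to 385 kb from *Irx3*, a homeobox gene of the early limb and the nearest coding gene on the *U6* side. The 69.0 kb gap between the pseudogene *Rpl7l1-ps1* and the processed transcript *Gm14664* (chrX:58225890-58294915) held 4 far peaks within 3.98 kb of each other. They had 57.2, 83.1, 40.2 and 9.54. The nearest coding genes lie outside this gap, *Sox3*, an HMG-box gene of neural progenitors, at 105 to 108 kb from the peaks and *Cdr1* on the other side. The 452 kb gap that ends at the lincRNA gene *Miat* also held 4, from 11.3 to 115 (chr5:112190746-112642247). These 5 gaps were picked for their limb peaks. Gaps of any length with 3 or more peaks far from genes numbered 42 in the limb list and 62 in the glial list, in which a gap held up to 9.

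Over all far peaks the median distance to the nearest other limb peak was 259 kb, and to the nearest glial peak 329 kb. Another limb peak lay within 25 kb of 187 far peaks (21.4%) and within 1 kb of 55. These counts were made for far peaks only, so they do not show whether such spacing is particular to them.

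The genes flanking the far peaks were read against 4 lists. Each far peak was given the nearest protein-coding gene on either side, at whatever distance, and the share of far peaks with a listed flank was set beside the share of all far bases with such a flank. In all, 201 far peaks (23%, 20.3% to 25.9%) had a flank on at least 1 list, beside 22.6% of far bases and 22.5% of glial peaks far from genes. Thus the lists together flanked limb peaks at about the share of sequence that they flank. With flanks no farther than 500 kb, the share was 12.8% of far peaks and 10.8% of far bases.

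Limb patterning genes flanked 28 far peaks (3.20%, 2.23% to 4.59%), where 2.41% of far bases and 1.86% of glial peaks far from genes (1.18% to 2.93%) had such a flank. These peaks lay beside 15 of the 76 list genes in the annotation, had a median −log10(p) of 50.1 (19.5 to 61.7), and 11 of them met the study threshold (39.3%, 23.6% to 57.6%). The intervals include the base share, the 28.3% of all far peaks at the threshold and the median of 34.0 for far peaks without such a flank. *Tbx5* was the list gene beside the strongest of them. On its *Rbm19* side lie the peak of 130 and weaker peaks of 38.3 and 68.9, at 132 and 135 kb, and on its *Tbx3* side lies a peak of 63.0 at chr5:120236871-120237278, 47.4 kb upstream. *Irx3* flanked 5 far peaks, those of the gap above, to which *4933436C20Rik* is nearer, and a peak of 58.5 at chr8:94461322-94461752, 136 kb upstream. Between *Marco* and *En1*, a homeobox gene of the ventral limb ectoderm, a peak of 63.8 lies 47.2 kb upstream of *En1*. *Meis1*, a homeobox gene of the proximal limb, has a far peak of 62.6 at 310 kb upstream (chr11:19229196-19229603).

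The list also held genes beside weaker or more distant peaks. *Zeb2*, a zinc finger homeobox repressor, is the nearest coding gene of far peaks of 51.9 and 15.3, at 1355 and 383 kb. *Ptch1*, the Hedgehog receptor, lies 87.2 kb from a far peak of 19.5, and *Lmx1b*, which specifies dorsal limb identity, lies 39.4 kb from a far peak of 17.2. *Pitx1*, which specifies the hindlimb, lies 93.3 kb from a far peak of 13.7. Genes named after their values were seen include *Hand2*, an upstream regulator of *Shh*, 654 to 662 kb from far peaks of 10.7, 61.7 and 11.8, *Dach1*, with far peaks of 73.1 and 50.2 at 513 and 713 kb, and *Tbx18*, with a far peak of 59.6 at 505 kb. In the last of these, 60.05% of the 24-base words occur elsewhere in the genome. Each of the peaks beside *Hand2*, *Dach1* and *Tbx18* has a nearer coding gene on its other side. These are *Fbxo8* at 66.4 to 73.9 kb, *Mzt1* at 352 and 152 kb, and *Nt5e* at 90.9 kb.

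**Figure D5:**
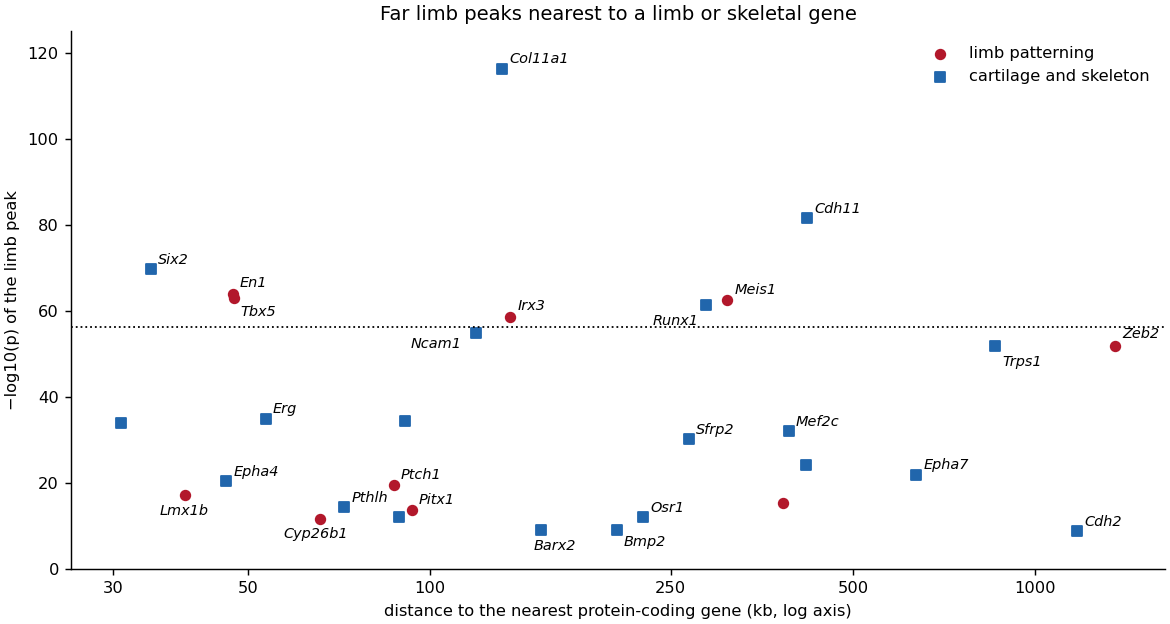
The −log10(p) of the 30 far peaks whose nearest protein-coding gene is on the limb patterning or the skeletal list, against the distance to that gene (log axis, kb), labelled with each of the 25 genes at its strongest peak. The dotted line is the study threshold, and the 8 peaks above it lie beside *Col11a1*, *Cdh11*, *Six2*, *En1*, *Tbx5*, *Meis1*, *Runx1* and *Irx3*, from 34.6 to 420 kb away. Of all far peaks, 28.3% met this threshold.

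Genes of cartilage and skeleton flanked 35 far peaks (4.01%, 2.89% to 5.52%), beside 3.49% of far bases and 2.59% of glial peaks far from genes. The median was 30.1 (15.6 to 51.8), against 35.4 for far peaks without such a flank, and 9 of the 35 met the study threshold (25.7%, 14.2% to 42.1%), beside 28.3% of all far peaks. Far peaks lay beside 23 of the 76 list genes in the annotation. *Col11a1* had the strongest far peak for which a list gene was the nearest, 116. *Cdh11*, a cadherin of mesenchyme and osteoblasts, had 3 such far peaks, of 81.5, 24.1 and 34.0, at 420, 418 and 30.9 kb, and the first pair lie next to each other at chr8:104736671-104737103 and chr8:104738673-104739351. *Six2*, a homeobox gene of mesenchymal progenitors, had a far peak of 69.7 at chr17:86122196-86122627, 34.6 kb upstream. *Runx1*, a runt-domain factor present in early cartilage and blood, had far peaks of 61.3 and 34.4, at 286 and 91.0 kb upstream, and 48.9% of the words of the weaker were repeated elsewhere.

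Below the study threshold in this list were far peaks beside *Ncam1*, an adhesion molecule of condensing mesenchyme (54.8 at 119 kb), *Trps1* (51.8 at 859 kb), *Erg*, an ETS factor of joint cartilage (34.9 at 53.5 kb), *Mef2c*, a regulator of chondrocyte hypertrophy (32.0 at 391 kb), and *Sfrp2*, a Wnt antagonist (30.1 at 268 kb). The ephrin receptor genes *Epha7* and *Epha4* had far peaks of 21.9 and 20.4, at 636 and 46.1 kb. *Pthlh*, which keeps growth plate chondrocytes proliferating, had far peaks of 14.4 and 11.98 at 72.1 and 88.8 kb. In the limb and skeletal lists together, 25 genes were the nearest coding gene of 30 far peaks. None of these 30 overlapped a glial peak, beside 1.72% of all far peaks. Of the 25 genes, 4, *Cdh11*, *Runx1*, *Zeb2* and *Pthlh*, had more than 1.

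Other developmental transcription factors, a list of 113 genes, flanked 63 far peaks (7.21%, 5.67% to 9.12%), beside 4.79% of far bases. The glial peaks far from genes had such a flank in 6.73% (5.31% to 8.49%), so that both lists of peaks exceeded the share of bases. *Klf4* flanked 6 of the 63 limb peaks, *Bcl11b* 5 and *Sox3* 4. The intervals count each peak as separate and do not allow for such groups. The median of the limb peaks was 40.5 (22.5 to 56.7), against 33.8 for far peaks without such a flank, and 24 of them met the study threshold (38.1%, 27.1% to 50.4%), beside 28.3% of all far peaks. Both intervals include the value they are set beside. Among those with more than 1 far peak, named after their values were seen, *Nr2f2*, an orphan nuclear receptor gene, had 3 that each met the threshold, with 73.9, 58.0 and 56.7, and *Lhx8*, a LIM homeobox gene, had far peaks of 79.8 and 82.2 at 64.1 and 201 kb. *Tyw3* is nearer to the peak of 82.2, at 44.5 kb.

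Genes of cell adhesion and axon guidance, which often lie in long deserts, flanked 76 far peaks (8.70%, 7.004% to 10.8%). Here the share was below that of far bases, 12.03%. The glial share was 11.6% (9.73% to 13.8%), and its interval overlaps that of the limb. The limb peaks beside these genes had a median of 23.4 (18.4 to 27.8), below the 36.7 of far peaks without such a flank, and 10 of the 76 met the study threshold (13.2%, 7.31% to 22.6%), beside 28.3% of all far peaks. The strongest, chosen after values were seen, was a peak of 91.4 beside *Cdh20*, 3868 kb away, with *Cntnap5b* nearer at 414 kb. A listed gene on both sides was found for 10 far peaks (1.14%). Of these, 3 lie between *Slitrk1* and *Slitrk6*, 3 between *Cdh6* and *Cdh9*, and 1 each between *Cdh9* and *Cdh10*, *Robo1* and *Robo2*, *Epha4* and *Pax3*, and *Tbx3* and *Tbx5*.

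Few far peaks overlapped a peak of the glial list. The study compared its top peaks with the glial assay by eye and removed a larger part of them. That is another measure, on another set of peaks, than the overlap of called lists given here. A glial peak overlapped 15 far peaks (1.72%, 1.043% to 2.81%), where 3.12% of all limb peaks on these chromosomes had such an overlap, and it overlapped 13 near peaks (2.21%, 1.29% to 3.74%) and 61 genic peaks (4.38%, 3.42% to 5.59%). The interval of far peaks overlaps that of near peaks and not that of genic peaks. These 15 far peaks had a median −log10(p) of 54.1 (17.2 to 80.8), against 34.0 in the other far peaks, and 11.0% of their 24-base words occurred elsewhere in the genome at the median, against 0.779%. Sequence low in repeats, with less than 10% of its 24-base words found elsewhere, made up 639 far peaks (73.1%, 70.1% to 76.0%), 77.5% of genic peaks and 74.4% of all limb peaks. The part of repeated sequence in the overlap was not tested.

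In base composition the far peaks were poorer in GC than genic peaks, with medians of 41.7% (41.3% to 42.3%) and 45.4% (44.9% to 45.8%). Tiles of 400 bases over all far sequence had a median of 39.5%, and glial peaks far from genes had 40.4%. The far peaks held a median of 2 CG dinucleotides and the genic peaks 4. GC content and −log10(p) had a rank correlation of 0.10 over the 874 far peaks.

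A stretch of at least 12 consecutive bases identical to a probe, on either strand, was present in 73 far peaks (8.35%, 6.70% to 10.4%), where 8.05% of all limb peaks held one. The share was 9.17% of near peaks (7.10% to 11.8%), 7.39% of genic peaks (6.13% to 8.89%) and 2.38% of glial peaks far from genes. Of all tiles of 400 bases in far sequence, 1.09% held such a stretch, against 7.78% of the far peaks in their central 400 bases. The stretch was 12 bases in 42 far peaks, 13 in 27 and at least 14 in 4, and 19 of the 25 probes were represented. The 73 far peaks had a median of 40.5 (30.1 to 53.2), and the others had 34.0 (30.6 to 37.3). Of the 73, 2 overlapped a glial peak. When 15 matching bases of 20 were required instead, 139 far peaks qualified (15.9%, 13.6% to 18.5%), beside 17.9% of all limb peaks and 20.1% of genic peaks. Both an odd and an even probe matched in this way in 5 far peaks (0.572%, 0.245% to 1.33%). The same was found for 8 near peaks (1.36%), 11 genic peaks (0.790%) and 0.518% of glial peaks far from genes. Whether a peak arose from the probe sequence was not tested.

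Probe 9 accounted for the largest number of the far peaks with a stretch of 12, 18 peaks on 12 chromosomes (2.06%), against 0.0789% of far tiles. The probe is printed below, with the bases that every stretch in these 18 far peaks covered in capitals. A stretch of 12 in a probe of 20 bases must cover bases 9 to 12, so that of the capitals, bases 6 to 12, the last 4 were fixed by the length.
Probe 9: gaccaATTCATGagctgtca
Their scores had a median of 41.2 with extremes of 12.3 and 100, and 6 met the study threshold, which 28.3% of all far peaks met. In the glial list, 4 peaks far from genes held a stretch of probe 9. Probe 5 was represented in 9 far peaks, among them those beside *Tbx5*, *Slc39a10* and *Sfrp2*. Probe 1 was represented in 8, among them the peak 93.4 kb from *Gm10257* and 640 kb from *Pik3r1*. Probe 16, whose stretch lies beside *Nxph1* and *Gm11077*, was represented in 7 far peaks with a median of 61.0.

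The central 400 bases of the far peaks were searched on both strands for 8 words, and the same was done for 2220259 tiles of 400 bases more than 25 kb from any gene. The E-box CAGCTG, bound by helix-loop-helix factors, was present in 13.5% of far peaks (11.4% to 15.9%), 18.4% of genic peaks and 11.6% of far tiles. CCAATAAA, a word bound by posterior HOX proteins, was present in 2.29% of far peaks (1.49% to 3.51%), 1.22% of genic peaks (0.763% to 1.95%) and 2.85% of far tiles. AACAATGG, a SOX word, was present in 1.602% of far peaks, 1.29% of genic peaks and 2.62% of far tiles. TGACGTCA, bound by CREB and ATF proteins, was found in 3 far peaks (0.343%, 0.117% to 1.00%), beside 0.172% of far tiles. AGGNGGCAG, a part of the CTCF motif, was present in 2.52% of far peaks, 3.23% of genic peaks and 2.00% of far tiles. Of the simple repeats, 6 copies of CA in a row were present in 7.67% of far peaks (6.08% to 9.62%), against 5.44% of far tiles, 6 copies of GA in 2.52% against 2.64%, and 6 copies of TA in 1.03% against 1.30%. Hence of these words the interval of the far peaks lay above the share of far tiles only for 6 copies of CA. The same 6 copies were present in 8.49% of glial peaks far from genes (6.89% to 10.4%), 8.32% of near peaks and 7.32% of genic peaks. A match of letters is not a binding site.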

How the data were processed

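LncRNA-HIT ChIRP-seq was performed on the E 11 limb and on a glial cell line, and 1 deposited peak list for each tissue was analysed. Before deposit the authors aligned reads to mm9 with Bowtie 0.12.9, per the submitters' processing notes, kept unique alignments and scaled each library to its total reads. At each base the lower of the odd and even signals was kept, and MACS, whose version is not given in the sources used here, called peaks over input. The score that the authors deposited was divided by 10 to give −log10(p). Unique alignment lowers coverage of sequence with identical copies, and the minimum of the tracks lowers sites seen by 1 probe set.

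Distances were taken from peak edges to gene bodies of GENCODE M1 on NCBIM37, which is mm9. Repeated sequence was the percentage of 24-base words with a second copy elsewhere in the genome, both strands considered. Shares have Wilson and medians have binomial intervals of 95%. The members and gene lists were chosen with earlier results of these data known. Genes were named by rule: the coding flanks of the 10 strongest far peaks, of the 8 deserts with most far peaks and of the 5 farthest peaks, up to 20 limb or skeletal genes nearest to a far peak in order of score, and the peaks next to the 25 kb limit. Deserts tied at 3 far peaks were not all named. Other limits, gene sets, overlaps, gap lengths and probe matches were tried. No comparison between samples was made from the merged lists, and 0 columns of other samples were present. Signal tracks of the libraries and inputs were not analysed here.

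The procedures were tested on simulated data, in which 1000 of 1000 distances, 100 of 100 repeated stretches and 100 of 100 probe stretches were recovered, and 959 of 1000 intervals held the true median. Python 3.11.15, numpy 2.4.6, pandas 2.3.3, scipy 1.17.1, numba 0.67.0 and matplotlib 3.10.9 were used.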

Additional observations from a re-analysis of the deposited data

How the results depend on the processing

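Of 28 alternatives, 21 left the value within its counting error (or, for a number of peaks or deserts, within 1.5 times) and 7 moved it. With a limit of 100 kb there were 382 far peaks instead of 874. With a limit of 10 or 50 kb there were 1135 or 605, and 1062 were far from protein-coding genes. The share with a glial peak was 2.83% among far peaks at the study threshold, against 1.72%. Deserts with 3 or more far peaks numbered 11 with gaps of at least 1 Mb and 69 with protein-coding genes only, against 26. The share with a probe stretch was 15.9% with 15 of 20 bases and 10.9% among far peaks at the study threshold, against 8.35%. The share with a listed flank was 12.8% with flanks within 500 kb, against 23%. The longer limits, longer gaps and nearer flanks admit fewer regions by construction, the coding-gene gaps admit more, and for the other shares the cause was not tested. The median −log10(p) stayed between 32.3 and 34.8, and the difference between far and genic medians between -3.85 and -0.78.

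No paired analysis was possible because the peak lists used here are merged over the probe sets of a tissue, so there was also no replicate to leave out. Read depth behind the peaks is unknown. Genes missing from the GENCODE M1 annotation were not considered, so the distances hold for that annotation alone.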

Other observations

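Of the 15 far peaks that a glial peak overlapped, 7 met the study threshold, which 28.3% of all far peaks met. The genes beside them are named here after their values were seen. The strongest, with a −log10(p) of 106 in the limb and 46.5 in the glial line, lies 43.1 kb from *Hsf2*, a heat shock transcription factor, at chr10:57162371-57163050, and none of its 24-base words occurs elsewhere in the genome. The next, with 99.3 and 45.6, lies at chr3:35579221-35580003 between *Sox2*, a factor of stem cells and neural progenitors, at 1028 kb and *Atp11b* at 73.1 kb, with 46.5% of its words repeated. A peak of 87.9 in the limb and 73.3 in the glial line lies between *Slitrk1* and *Slitrk6*, which encode transmembrane proteins of neurons, at chr14:110075246-110075677. Beside *Chrdl1*, a BMP antagonist, a peak at chrX:139917372-139917828 had 73.5 and 59.2. A peak at chr17:13498725-13499252 had 73.9 in the limb and 146 in the glial line, with 71.2% of its words repeated.

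Sequence that occurs elsewhere in the genome was at 10% or more of the words in 9 of the 15, and in 226 of the other 859 far peaks. At the weak end, the peak beside *Myocd*, a coactivator of smooth muscle genes, and *Map2k4* at chr11:65387472-65387878 had 8.78 in the limb and 11.7 in the glial line, with none of its words repeated.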
